A study of Mus musculus with 4 samples.

Results

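The growth hormone axis of the liver was followed through 10 genes in mouse liver around birth: *Igf1*, its receptor *Igf1r*, the growth hormone receptor *Ghr*, the signal transducer *Stat5b*, its target and feedback gene *Socs2*, the serum carrier *Igfals* and the binding proteins *Igfbp1*, *Igfbp2*, *Igfbp3* and *Igfbp4*. They were found by gene name among the 36161 names of the array annotation, and all of their probes were kept, which gave 19 of 55681 probes. *Igf1* was measured by 5 of these and serves here as context. The arrays held RNA of whole liver from microsomic mice (M) and from control mice (C). The methods define microsomic mice by a birth weight below a low percentile of the colony for their sex. The 4 groups, with 1 array each, are written CF and CM for the control females and males, and MF and MM for the microsomic females and males. According to the sample labels all groups were C57BL/6J fetuses at embryonic day 20, with no treatment and no engineered allele, whereas the methods describe newborn C57BL/6 N mice with littermates as controls. Whether an array held 1 liver or a pool is not stated in the sources used here, and replicate experiments that the methods mention were not analysed here. The comparisons of M with C within each sex ask whether genes of this axis differ in the liver of animals born small.

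Growth hormone from the pituitary binds *Ghr* on hepatocytes, the receptor activates the kinase *Jak2*, and *Jak2* phosphorylates *Stat5b*, which then enters the nucleus and switches on *Igf1*, *Igfals*, *Socs2* and *Cish*. The products of *Socs2* and *Cish* in turn dampen the receptor. Secreted IGF1 travels in blood bound to IGF binding proteins, for the greater part in a complex of IGF1, IGFBP3 and the acid labile subunit encoded by *Igfals*. The liver becomes responsive to growth hormone around and after birth, and before then growth depends more on IGF1 and IGF2 made without growth hormone. IGFBP1 and IGFBP2 are the binding proteins for which fetal liver is best known.

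A difference between a pair of arrays comes without an error or a p-value here, as there was 1 array per group, and the small number of arrays limits its precision. Levels are given as the log2 of the processed signal, a background-subtracted fluorescence intensity, minus the log2 of the 75th percentile of the array, so that 0 is that percentile. A level cannot be compared between probes, since probes differ in how brightly they report the same amount of RNA. A difference of more than 1.5-fold, or 0.58 on the log2 scale, was counted. All 19 probes were well above background and none was saturated on any of the 4 arrays. Of the non-control spots, 56.1% to 65.3% were well above background. Repeated spots of a probe within an array had a median SD of 0.19 to 0.26 (log2), which is technical error and does not include the spread between animals.

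The probes are 60 bases long and report 1 short stretch of a transcript each. A probe each of *Igfals*, *Igfbp2* and *Socs2* whose letters can be read as coding sequence are shown as a set, since *Socs2* and *Igfals* stand higher on both M arrays and *Igfbp2* is a case where both probes can be compared. Positions are on mm9.

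*Igfals* A_51_P277088, chr17:25018251-25018310, + strand: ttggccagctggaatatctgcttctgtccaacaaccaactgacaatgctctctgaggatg

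*Igfbp2* A_55_P2056729, chr1:72898677-72898736, + strand: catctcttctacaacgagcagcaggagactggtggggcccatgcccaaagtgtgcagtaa

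*Socs2* A_55_P1992838, chr10:94875468-94875527, - strand: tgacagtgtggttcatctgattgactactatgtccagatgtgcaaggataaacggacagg

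STAT5 is known to bind the palindrome TTCNNNGAA. This motif, which reads the same on both strands and was the only motif searched, was looked for in the RefSeq promoters of GRCm38.p6, from 250 bases before to 50 bases after each start. It was found in 2726 of 32851 promoters (8.30%). Promoters were listed for 9 of the 10 genes, and 2 of these 14 promoters held the motif, both of *Igfals*. The window before the start in which it lies nearest to the start is shown with the motif in capitals, 58 bases before the start, at chr17:24877981-24878230 on the + strand of GRCm38.p6. In the other *Igfals* promoter it begins 236 bases before the start and reads TTCTCAGAA. For the members other than *Igfals*, either no match was found or no promoter was listed. Of the promoters of other genes of the axis, 6 of 43 (14.0%) held the motif, those of *Akt2*, *Cish*, *Socs3*, *Prlr* and *Bcl6*. A match describes the letters and not binding.

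*Igfals* promoter: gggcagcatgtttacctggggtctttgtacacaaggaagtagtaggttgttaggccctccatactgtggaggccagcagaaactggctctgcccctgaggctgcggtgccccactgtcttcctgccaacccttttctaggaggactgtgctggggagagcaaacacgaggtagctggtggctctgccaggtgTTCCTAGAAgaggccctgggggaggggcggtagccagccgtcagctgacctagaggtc

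With the scaling used here, the feedback gene *Socs2* was the member with every probe past 1.5-fold higher in M in both sexes. In females 6 of the 19 probes passed 1.5-fold, against 41.4% of all probes compared, with 5 higher in MF (19.1% of all probes) and 1 lower (22.3%). In males 9 passed, against 41.1%, with 7 higher in MM (17.8%) and 2 lower (23.3%). The shares of all probes include dim probes, whereas every member probe was well above background on all 4 arrays. Of the 25040 probes well above background on all 4 arrays, 37.1% passed in females (4050 higher, 5251 lower) and 35.3% in males (3992 and 4836). The split of the member probes in females depended on the scaling, with 5 higher and 4 lower after quantile normalization and 9 higher and 0 lower without scaling. The receptor *Ghr* and *Stat5b* passed in males by 1 of 2 probes each, and *Igfbp3* stood lower in MM. The median log2 difference of the 19 probes was 0.08 for MF minus CF and 0.52 for MM minus CM, and that of all probes compared was -0.05 and 0. Past 1.5-fold and higher in M in both sexes were 3 member probes, the 3 of *Socs2*, where 3.05% of the 32379 probes compared in both sexes did so. No member probe was past 1.5-fold and lower in M in both sexes (0 of 19, against 3.94% of all probes), and 1 probe, of *Igf1*, passed in opposite directions (9.95%).

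**Figure D1:**
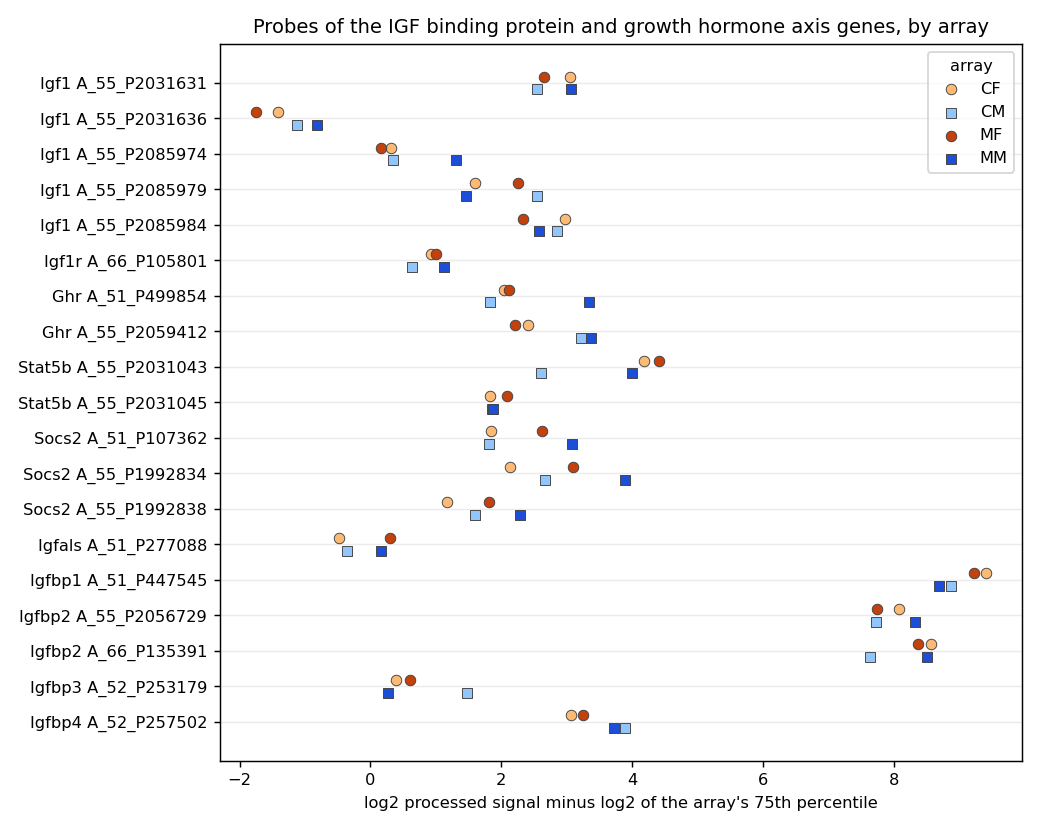
Level of each member probe on the 4 arrays, as the log2 processed signal minus the log2 of the 75th percentile of the array (1 array per group; circles are females and squares males, dark symbols M and light symbols C). In 7 probes both dark symbols are to the right of both light ones, the 3 of *Socs2* and those of *Igfals*, *Igf1r*, *Ghr* variant 1 and *Stat5b* A_55_P2031045, and levels can be compared along a row but not between rows.

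*Socs2*, on the minus strand of chromosome 10, encodes a suppressor of cytokine signalling whose loss gives oversized mice. Its probe A_51_P107362 (94875066 to 94875125) was printed at 10 spots, of which 9 carried no outlier flag on any array. Over these 9 spots the mean level was 1.84 ± 0.16 on CF, 2.62 ± 0.18 on MF, 1.81 ± 0.14 on CM and 3.07 ± 0.18 on MM (SD between 9 spots of the same array). The spots ranged from 2.40 to 2.96 on MF and from 1.58 to 2.01 on CF. In males they ranged from 2.72 to 3.30 on MM and from 1.57 to 1.99 on CM. The lowest M spot was thus above the highest C spot in each sex, and the signal was 1.72-fold higher in MF and 2.40-fold higher in MM. Spots of the same array share their RNA, so their spread says nothing about the spread between livers.

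The other *Socs2* probes had 1 spot each and do not overlap with the former or with each other. Probe A_55_P1992834 (94875187 to 94875246) had levels of 2.13 on CF, 3.09 on MF, 2.67 on CM and 3.89 on MM, which made it 1.95-fold higher in MF and 2.32-fold higher in MM. Probe A_55_P1992838, whose sequence is shown above, had 1.16 on CF, 1.81 on MF, 1.60 on CM and 2.29 on MM, or 1.56-fold higher in MF and 1.61-fold higher in MM. All *Socs2* probes had both M arrays above both C arrays, and so had 7 of the 19 member probes, these included, and 11.1% of the 25040 probes well above background on all 4 arrays. For *Stat5b* A_55_P2031045 the lowest M array was 0.01 above the highest C array. It was 0.07 above for *Igf1r* and 0.08 above for *Ghr* variant 1. These gaps lie below the median SD between repeated spots. The *Socs2* probes belong to the same transcript and are repeated readings of the same RNA rather than independent samples.

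The *Socs2* differences between the sexes are given beside those between M and C. With 1 array per group they mix sex with the spread between animals and arrays. All differences between the sexes in this text also depend on the scaling. The median CM minus CF of probes well above background on all arrays was 0.04 with the scaling used here. It was -0.38 with arrays centred on the median. For MM minus MF these medians were 0.12 and -0.16. CM minus CF was -0.03, 0.44 and 0.54 (log2) for A_51_P107362, A_55_P1992838 and A_55_P1992834, and MM minus MF was 0.45, 0.48 and 0.80. The M minus C differences ran from 0.64 to 1.26. For A_55_P1992838 the male-female differences of 0.44 and 0.48 were not far below its M minus C differences of 0.64 and 0.69. For A_55_P1992834 the MM minus MF difference of 0.80 was not far below its MF minus CF difference of 0.96.

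**Figure D2:**
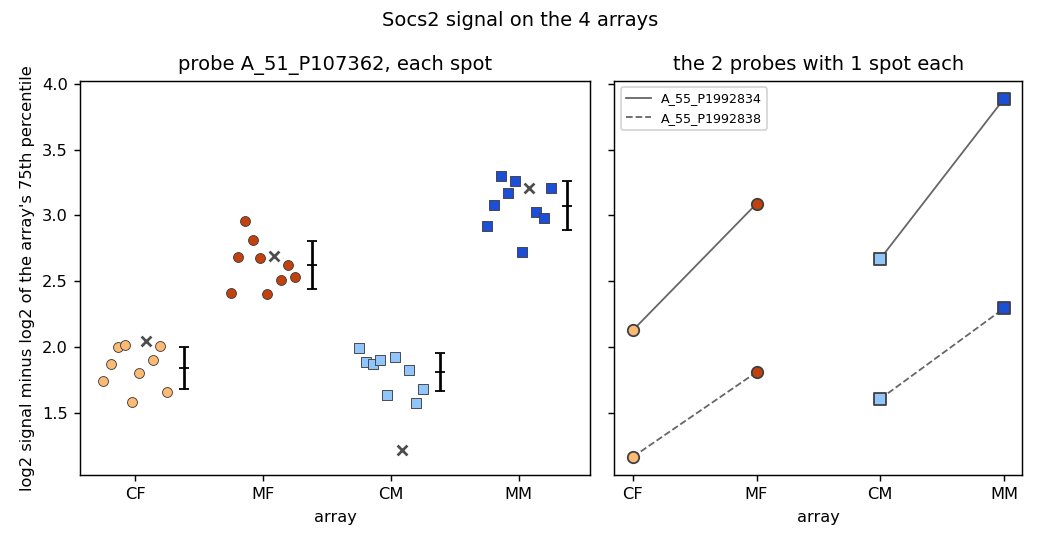
*Socs2* level (log2 processed signal minus the log2 of the 75th percentile of the array) on the 4 arrays. The left panel shows each spot of the probe printed at 10 spots, with the mean and SD of the 9 unflagged spots as a bar and the spot left out as a cross, and the right panel the 2 probes with 1 spot each, with lines joining C to M of the same sex. Every unflagged M spot lies above every unflagged C spot of its sex, and both single-spot probes are higher in M than in C in females and males.

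Genes with several probes put the *Socs2* result in context, in a comparison chosen after its values were seen. Of 940 genes with at least 3 probes well above background on all arrays, *Socs2* was the 1 gene (0.106%) with every probe past 1.5-fold higher in M in both sexes. In the lower direction there were 6 (0.638%), all of them lincRNA loci. These shares were counted with the scaling used here only. With normexp background correction and quantile normalization, *Socs2* A_55_P1992838 had MF minus CF at 0.47, under the threshold. A limma model of the 4 arrays with a term for M or C and a term for sex tests a difference common to both sexes and leaves 1 residual degree of freedom. In it 0 of 25040 probes had an adjusted p under 0.05 (smallest 0.657), and 1124 (4.49%) had an unadjusted p under 0.05. Among the members, 2 *Socs2* probes did so, A_55_P1992834 with an M minus C log2 difference of 1.09 (SE 0.42, unadjusted p = 0.0312, limma adjusted p = 0.998) and A_51_P107362 with 1.02 (SE 0.43, unadjusted p = 0.0422, limma adjusted p = 0.998). The remaining 17 member probes had unadjusted p-values of 0.115 or more in this limma fit.

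*Igfals*, which encodes the acid labile subunit of the circulating IGF complex, was measured by 1 probe on chromosome 17, shown above. Its level was -0.49 on CF, 0.30 on MF, -0.36 on CM and 0.16 on MM. Both M arrays were above both C arrays, with a 1.72-fold higher signal in MF that passed the threshold and a 1.43-fold higher signal in MM that did not. CM minus CF was 0.13 and MM minus MF -0.14, so the sexes lay closer together than M and C did. In limma the M minus C log2 difference was 0.65 (SE 0.42, unadjusted p = 0.158, adjusted p = 0.998).

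*Igf1* encodes the hormone itself, and its 5 probes did not agree on a direction. They gave MF minus CF differences from -0.63 to 0.67 and MM minus CM differences from -1.10 to 0.95. The same probe, A_55_P2085979, had the highest difference in females and the lowest in males. No *Igf1* probe passed 1.5-fold in the same direction in both sexes. Its A_55_P2085984 was the member probe with both M arrays below both C arrays, with MF minus CF at -0.63 and MM minus CM at -0.27, and 16.9% of the probes well above background on all arrays had that order.

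*Ghr*, the growth hormone receptor, lies on the minus strand of chromosome 15 and has probes for 2 transcript variants. In rodents this gene also makes a soluble growth hormone binding protein by alternative splicing. The probe for variant 1, A_51_P499854 (3268107 to 3268166), had levels of 2.04 on CF, 2.12 on MF, 1.83 on CM and 3.34 on MM. MM was the array that stood apart, 2.85-fold above CM and 1.23 (log2) above MF, while MF was 1.05-fold above CF.

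The probe for variant 2 of *Ghr*, A_55_P2059412 (3277543 to 3277602), had 2.40 on CF, 2.21 on MF, 3.22 on CM and 3.36 on MM. With the scaling used here both male arrays were above both female arrays, by 0.82 in controls and 1.15 in M, and MM was 1.10-fold above CM. The difference between MM and CM was therefore seen with variant 1 alone, 1.51 against 0.14 on the log2 scale. No test of the difference between the probes could be made with 1 array each. Of 4314 genes with at least 2 probes well above background on all arrays, 43.7% had some but not all probes past 1.5-fold in MM vs CM and 45.1% in MF vs CF, so disagreement between probes was common on these arrays.

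*Stat5b*, the transcription factor through which growth hormone acts on liver genes, lies on the minus strand of chromosome 11. Its probe A_55_P2031043 (100642045 to 100642104), had levels of 4.18 on CF, 4.42 on MF, 2.60 on CM and 3.99 on MM. CM was the array that stood apart, 1.58 (log2) below CF, and MM was 2.63-fold above it. A second probe of the same transcript, A_55_P2031045 (100642187 to 100642246), had 1.82 on CF, 2.09 on MF, 1.85 on CM and 1.87 on MM. CM was not low with this probe, MM was 1.01-fold above CM, and MF was 1.20-fold above CF. A lower *Stat5b* signal in CM was thus given by 1 of its 2 probes.

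**Figure D3:**
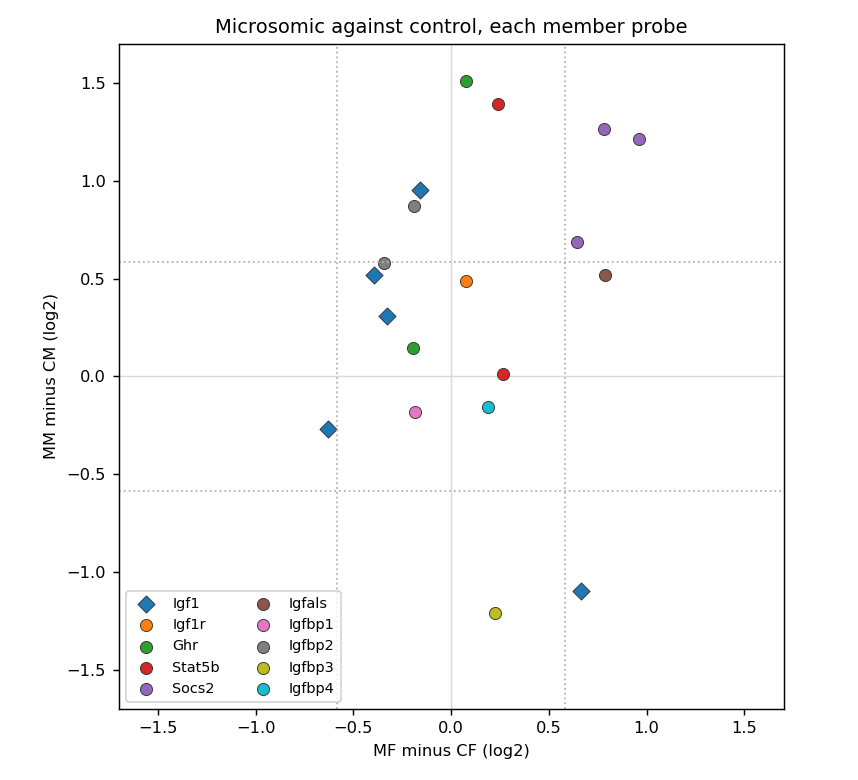
Difference between M and C in females (horizontal axis, MF minus CF) and males (vertical axis, MM minus CM) for each of the 19 member probes, on the log2 scale, with 1 array per group. Dotted lines mark 1.5-fold and diamonds are *Igf1*. The 3 *Socs2* probes are alone in the upper right corner, past the lines in both sexes, while a *Ghr* and a *Stat5b* probe lie near the vertical axis, high in males and close to 0 in females.

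*Igfbp1*, which codes for a binding protein made by hepatocytes and held down by insulin, was measured by A_51_P447545 on chromosome 11 (7102442 to 7102501, + strand). It had levels of 9.41 on CF, 9.22 on MF, 8.87 on CM and 8.68 on MM. MF minus CF was -0.19 and MM minus CM was -0.18, and neither sign was stable. With quantile normalization MF minus CF was -0.82, past 1.5-fold, and without scaling it was 0.21. With the scaling used here both female arrays were above both male arrays, by 0.54 in controls and by 0.54 in M. This is below 1.5-fold, but whether a sex difference of this size passes depends on the scaling.

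*Igfbp2* encodes a binding protein that is abundant before birth, and its probes lie close together on the + strand of chromosome 1. A_66_P135391 (72898813 to 72898872) had 8.56 on CF, 8.37 on MF, 7.63 on CM and 8.51 on MM, so that CM was the low array and MM was 1.83-fold above it. A_55_P2056729, shown above, had 8.08 on CF, 7.74 on MF, 7.73 on CM and 8.31 on MM. With this probe MM minus CM was 0.58, just under the threshold, and MF was nearly as low as CM. In females both probes were lower in MF, with differences of -0.19 and -0.34. These depended on the scaling, being -0.93 and -1.13 with quantile normalization, both past 1.5-fold, and 0.21 and 0.06 without scaling.

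*Igfbp3*, the partner of *Igfals* in the circulating complex, is a neighbour of *Igfbp1* on chromosome 11 but on the minus strand. Its probe A_52_P253179 (7106594 to 7106653) had levels of 0.39 on CF, 0.61 on MF, 1.47 on CM and 0.26 on MM. The CM array stood above the other arrays, which lay within 0.35 of each other, and it was 2.32-fold above MM. In females MF was 1.17-fold above CF. The members of the circulating complex thus did not share a pattern, *Igfals* being higher on both M arrays and *Igfbp3* highest on CM.

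*Igfbp4*, whose product binds IGF and is cut by the protease of *Pappa*, was measured by A_52_P257502 on chromosome 11 (98913334 to 98913393, + strand). Its level was 3.06 on CF, 3.25 on MF, 3.88 on CM and 3.73 on MM. With the scaling used here the order followed sex, with CM minus CF at 0.83 and MM minus MF at 0.48. M and C differed by 0.19 in females and -0.16 in males.

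*Igf1r*, the receptor through which IGF1 acts and which adult hepatocytes carry at low level, was measured by A_66_P105801 on chromosome 7 (75378461 to 75378520, + strand). It had 0.93 on CF, 1.0 on MF, 0.63 on CM and 1.12 on MM. Both M arrays were above both C arrays, by 0.07 in females and 0.49 in males, below the threshold in both. The female difference was smaller than the median SD between repeated spots.

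Between the sexes 6 member probes passed 1.5-fold in CM vs CF, 4 higher and 2 lower in CM, where 47.1% of all probes passed, 28% higher and 19.1% lower. In MM vs MF 6 passed, 5 higher and 1 lower in MM, where 50.7% of all probes did, 31.5% higher and 19.2% lower. The share of member probes past the threshold was 31.6% in both, no larger than the share among all probes. Among the 25040 probes well above background on all 4 arrays, as the member probes were, the shares were 38.9% and 45.4%. The splits depended on the scaling. With arrays centred on the median 1 member probe was higher and 7 lower in CM, and 4 were higher and 4 lower in MM. With the scaling used here *Ghr* variant 2 was higher in males in both comparisons, and *Stat5b* A_55_P2031043 had the greatest CM minus CF difference of the members, at -1.58.

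The list of 35 other genes of the axis was read by the brightest probe of each gene. In MF vs CF 34 were measured, of which 11 were past 1.5-fold higher (19.9% of all genes) and 1 lower (21%). Together these were 35.3% of the list against 40.9% of all genes, and the median log2 difference was 0.23 against -0.04. In MM vs CM 32 were measured, of which 4 were higher (17.7% of all genes) and 5 lower (23.1%). This split turned to 9 higher and 4 lower with median centring and to 13 and 2 without scaling, and was 3 and 8 with the trend with array position removed. The genes counted with the scaling used here were 28.1% of the list against 40.8%, with a median of -0.17 against 0, and no test was run on these shares. With this scaling the genes past the threshold in the same direction in both sexes were *Igfbp7*, higher in M as were 3.18% of all genes, and *Pappa*, lower in M as were 3.8%.

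*Igfbp7* encodes a secreted protein that resembles the IGF binding proteins and binds IGF1 weakly. Its level was -0.47 on CF, 1.06 on MF, -0.69 on CM and 1.88 on MM. Both M arrays were far above both C arrays, 2.89-fold in females and 5.90-fold in males. The 8 endothelial markers had a median log2 difference of -0.34 in MF vs CF, with 2 past 1.5-fold lower, and of -0.06 in MM vs CM, with 0 past it. Their part in the *Igfbp7* difference was not tested.

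*Pappa* encodes the protease that frees IGF from IGFBP4. It had -0.67 on CF, -4.27 on MF, -3.85 on CM and -4.91 on MM, which made CF the array that stood apart, 12.1-fold above MF, while CM was 2.08-fold above MM. The male levels were near background, the lowest well-above-background level being -4.68 on CM and -5.83 on MM. The male difference under other scalings is not given here. The CF array also carried heart muscle transcripts, with a summed level of the 6 heart markers of 104 on CF and 2.35 to 5.03 on the other arrays (linear scale, 1 being the 75th percentile), and with *Myh6* well above background on 2 of the 4 arrays. The part of this in the *Pappa* difference was not tested.

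**Figure D4:**
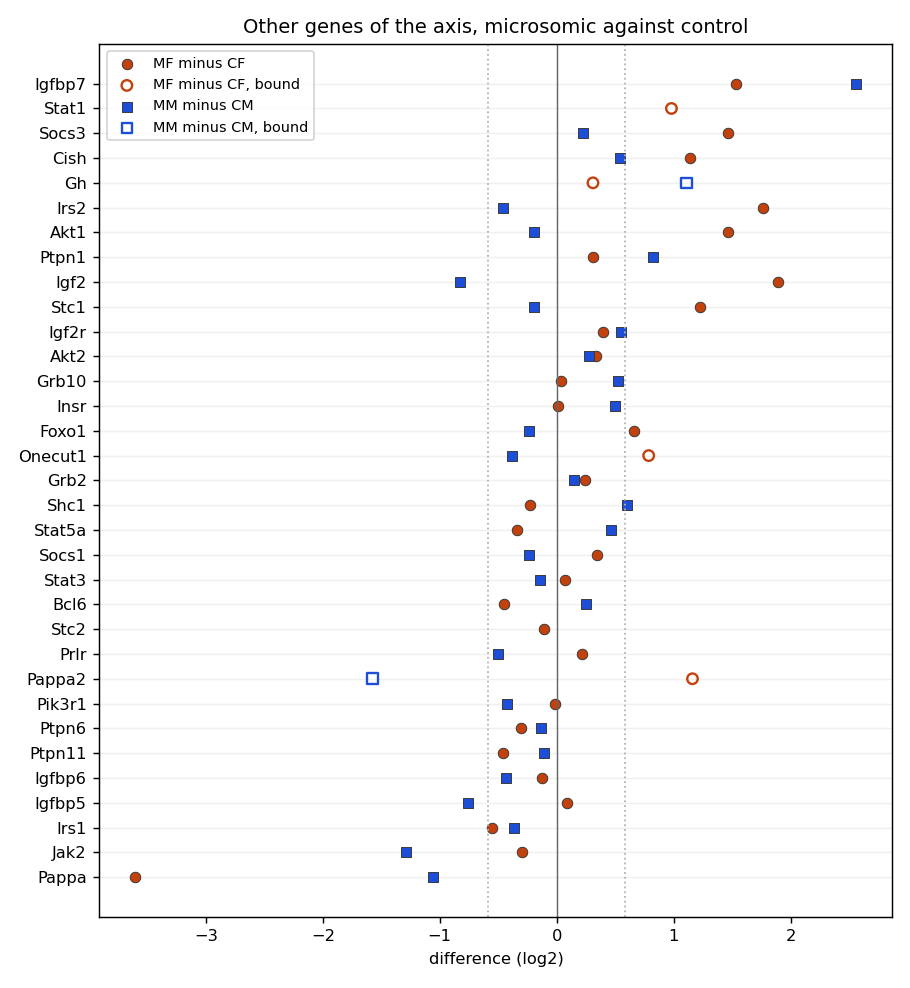
Difference between M and C for other genes of the axis, measured in females (orange circles, MF minus CF) or males (blue squares, MM minus CM), on the log2 scale and with 1 array per group. Open symbols are lower bounds of the size, where the array with less signal was not well above background, and dotted lines mark 1.5-fold. *Igfbp7* at the top is past the line on the right in both sexes and *Pappa* at the bottom past the line on the left.

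*Igf2*, the fetal growth factor, had levels of 3.24 on CF, 5.13 on MF, 6.11 on CM and 5.28 on MM. It was 3.71-fold higher in MF but 1.77-fold lower in MM, and 9.85% of all genes passed in opposite directions. *Irs2*, an adaptor of the insulin and IGF receptors, was 3.40-fold higher in MF (4.60 against 2.84) and 1.38-fold lower in MM. The related adaptor *Irs1* had the next lowest difference after *Pappa* in females, -0.56, which was under the threshold. Its other probe, A_52_P171212, gave MF minus CF at 0.39 and MM minus CM at -1.10, against -0.37 in males by the former.

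In males the kinase *Jak2* was 2.44-fold lower in MM, with 2.10 against 3.39 on CM, and 1.23-fold lower in MF. *Ptpn1*, a phosphatase that dampens insulin and growth hormone signalling, was 1.77-fold higher in MM and 1.24-fold higher in MF by its brightest probe. Its other probe, A_55_P2097111, gave MM minus CM at -0.07 and MF minus CF at 0.87, so the probes disagree on the sex in which the threshold was passed. *Gh* itself, which is made in the pituitary, was not well above background on CF and CM, and was at least 2.15-fold higher in MM. *Pappa2*, a relative of *Pappa*, was not well above background on MM and CF, and was at least 2.98-fold lower in MM and at least 2.23-fold higher in MF.

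*Cish* encodes another suppressor of cytokine signalling and is also a target of *Stat5b*. It falls outside the rule for named genes and was looked at after its value was seen. So do *Akt1*, *Socs3* and *Stc1*, which were 2.77-fold, 2.75-fold and 2.34-fold higher in MF and under the threshold in males. Of the 34 axis genes measured in females, 11 were past 1.5-fold higher and 1 lower. The values of *Cish* are thus those of a gene picked from many. Its level was 1.82 on CF, 2.95 on MF, 1.53 on CM and 2.08 on MM. Both M arrays were above both C arrays, 2.20-fold in females, past the threshold, and 1.46-fold in males, under it. Of all probes well above background on all 4 arrays, 11.1% had this order.

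Marker levels of liver cell types differed between the arrays, and in bulk tissue fewer cells of a type and less RNA per cell cannot be told apart. All 10 hepatocyte markers were well above background on every array, and their median log2 difference was 0.18 for MF minus CF and -0.64 for MM minus CM, with 6 of 10 past 1.5-fold lower in MM. On MF 7 of 8 granulocyte and 7 of 8 macrophage markers were past 1.5-fold higher than on CF, with medians of 1.0 and 0.79, against -0.01 and 0.02 for MM minus CM. Intestinal markers had a summed level of 7.14 on CF, 69.1 on MF, 6.39 on CM and 31.6 on MM. In females 4 of the 5 intestinal markers compared were past 1.5-fold higher in MF and 0 lower, with a median MF minus CF of 4.38. The marker *Fabp2* made up most of the sum on MM, with a level of 4.98 against 2.59 on CM, while 4 of the 5 markers compared were past 1.5-fold lower in MM and the median MM minus CM was -1.24. *Cdx2* and *Fabp6* were well above background on 1 array each. The level of *Cdx2* was -0.20 on MF and -7.56 to -6.10 on the other arrays. The part of these cell types and organs in the differences of the members was not tested.

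The genes whose profile over the 4 arrays was nearest to that of *Socs2* A_55_P1992834, by the distance between log2 profiles centred on their own mean, were *Cited2* at 0.15, *Zfp385b* at 0.16 and *Tlr2* at 0.16, of 19297 genes compared. *Cited2* encodes a transcriptional coregulator and *Tlr2* a receptor of innate immunity. *Tlr2* had MF minus CF at 1.15 and MM minus CM at 1.23, near the 0.96 and 1.22 of the *Socs2* probe. For *Stat5b* A_55_P2031043 the nearest were the probe A_55_P2047375, which has no gene name, at 0.02, *Tsr1* at 0.08 and *Narf* at 0.10. All of these were low on CM alone, as the *Stat5b* probe was. The likeness rests on 4 arrays and is a description.

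**Figure D5:**
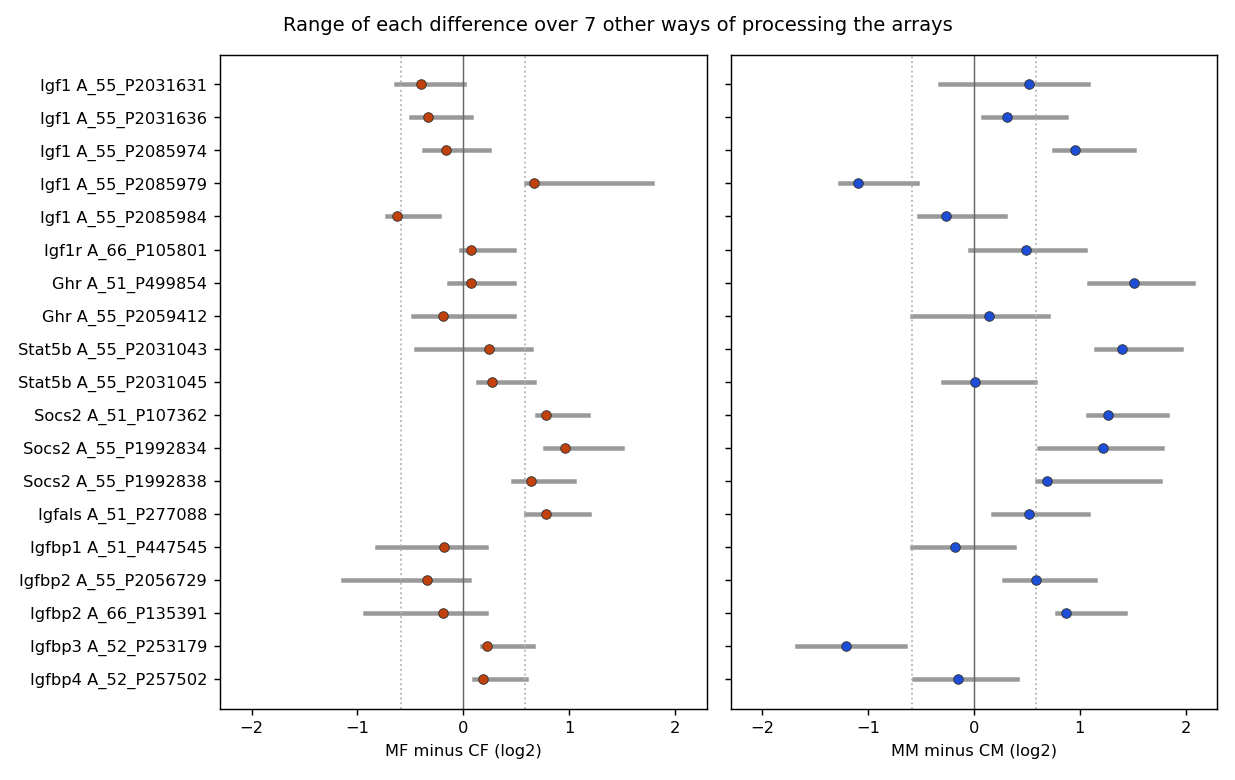
Difference between M and C for each member probe (point, on the log2 scale) in females (left) and males (right), with the range over 7 other ways of processing the arrays as a bar. Dotted lines mark 1.5-fold. The bars of the 3 *Socs2* probes lie to the right of 0 in both sexes, from 0.47 to 1.82, as do those of *Igfals*, and the bar of *Igfbp3* lies to the left of 0 in males.

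Under the other ways of processing the arrays, the *Socs2* differences ranged from 0.47 to 1.5 in females and from 0.60 to 1.82 in males. *Igfals* ranged from 0.59 to 1.19 in females and from 0.18 to 1.08 in males. In males *Ghr* variant 1 ranged from 1.09 to 2.07, *Stat5b* A_55_P2031043 from 1.15 to 1.95, *Igfbp2* A_66_P135391 from 0.78 to 1.43 and *Igfbp3* from -1.67 to -0.65. Without *Igf1*, 12 of the 28 ranges spanned 0. These were *Igfbp1*, *Igf1r* and *Ghr* variant 2 in both sexes, *Ghr* variant 1, both *Igfbp2* probes and *Stat5b* A_55_P2031043 in females, and *Igfbp4* and *Stat5b* A_55_P2031045 in males. The deposited signal without scaling shifts all genes toward M. The median of the 25040 probes well above background on all 4 arrays was then 0.29 in MF vs CF and 0.54 in MM vs CM. With the scaling used here the median of these probes was -0.11 and -0.02.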

How the data were processed

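The authors labelled liver RNA with Cy3, hybridized it to SurePrint G3 Mouse GE 8x60K arrays and read the scans out with Agilent Feature Extraction 10.7.3.1, per the file headers. Whether the 4 arrays lay on the same slide was not established here. The deposited processed signal is a linear intensity with background subtracted and no normalization between arrays, and the deposited table of values equals it in all 62976 spots. From it the log2 signal minus the log2 of the 75th percentile over non-control spots was computed. Any spot with an outlier flag on 1 or more arrays was dropped throughout and the others of its probe were averaged, with 1 spot left out for each of 2 member probes. A difference was counted past 1.5-fold where the probe stood well above background on 1 or both arrays of the pair. If on 1, the difference was taken against the lowest well-above-background signal of that array, or the probe's own if higher, and is a lower bound.

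limma 3.58.1 in R 4.3.3 was fitted to all 4 arrays over probes well above background on each, with Benjamini-Hochberg adjustment, and tested on simulated data. The M and C arrays of each sex were the groups, and pairs of arrays were given no p-value. Besides the members, axis genes past 1.5-fold in the same direction in both sexes were named. So were the 3 with the greatest differences in each direction and sex, and the 3 nearest profiles to the member with the greatest difference in each sex. That member was taken by the brightest probe of each gene, without *Igf1*. In males this passes over *Ghr* A_51_P499854, which had a greater difference than the *Stat5b* probe used. A gene of the axis list is counted in the list but not reported here. The members and lists were chosen with earlier results of these data known. Alternatives were other scalings and background correction, dim-probe filters, flagged spots kept, a 2-fold threshold, genes in place of probes, and removal of trends with array position and probe GC content. Gene names and positions are those of the array annotation (mm9), and all 10 members and 35 axis genes were matched to a RefSeq table of GRCm38.p6, used for names and promoters. Python 3.11.15 was used.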

Additional observations from a re-analysis of the deposited data

Results flagged for a closer look

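In 3 cases the difference between M and C passed 1.5-fold in opposite directions in the sexes, and with 1 array per group the difference between the sexes was not tested. *Igf1* A_55_P2085979 had MF minus CF at 0.67 and MM minus CM at -1.10, 1.76 apart on the log2 scale, and 1 of its 2 spots was left out for an outlier flag. *Igf2* A_55_P2118173 had 1.89 and -0.82, 2.72 apart, by a single probe that was lowest on CF. *Pappa2* A_55_P1984745 had 1.16 and -1.58, at least 2.74 apart, with both differences being bounds near background.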

How the results depend on the processing

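Of 266 differences of the member probes recomputed under 7 alternatives, 203 moved by less than the SD that repeated spots give a difference of 2 arrays (0.34 in females and 0.32 in males), 63 moved by more and 0 of the differences past 1.5-fold changed sign. Part of this tally was fixed in advance and it does not measure stability. Median centring moves all differences of a pair by the same amount, below that SD, and leaving out the scaling moves all by the same amount, above it. Keeping flagged spots can move only probes with a flagged spot. The counts past 1.5-fold moved as follows. Shares of all genes by the brightest probe were 40.9% in MF vs CF and 40.8% in MM vs CM. For the other settings the share of all probes or genes past the threshold is not given. Those counts thus do not show whether the members or axis genes passed more or less often than others. With a 2-fold threshold 0 member probes remained counted in MF vs CF (6 at 1.5-fold), 2 in CM vs CF (6), 3 in MM vs MF (6) and, of the axis genes in MM vs CM, 5 (9). Counting genes by the brightest probe gave 2 members in MF vs CF, 4 in MM vs CM (9 probes) and 2 in MM vs MF, and by the mean over probes 2, 5 and 1. On the deposited signal without scaling 14 member probes passed in MM vs CM (13 higher, against 7 of 9), 19 axis genes in MF vs CF (12) and 15 axis genes in MM vs CM (9). Normexp with quantile normalization gave 13 member probes in MM vs MF and 15 axis genes in MM vs CM. Among all probes the share of calls that were higher was 46.1% in MF vs CF, 54.6% with median centring and 77.9% without scaling, and in MM vs CM 43.4%, 60.5% and 77.6%. In CM vs CF it was 59.4% and with median centring 32.9%, which turned the member split from 4 higher and 2 lower to 1 and 7, and in MM vs MF 62.1% and 42.5%. For M vs C in limma, with 0 probes at adjusted p under 0.05, median centring gave 13, no scaling 36 and the threshold of the methods (unadjusted p under 0.01 and over 1.5-fold) 210, none of them a member. Without the term for sex and with each array left out in turn the count ran from 0 to 17, 10 without MM and 17 without CM, again with no member, the group left with 1 array being assumed to vary like the other. No paired analysis was possible because each group has 1 array, beyond the limma fit, whose term for sex sets M against C within each sex.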
